A study of Mus musculus with 6 samples.

Results

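The growth hormone and IGF1 axis of the liver was followed through 9 genes, Ghr, Stat5a, Stat5b, Igf1, Igfals, Igfbp2, Socs2, Cish and Bcl6, in mice that lack carnitine palmitoyltransferase II in hepatocytes. Members were taken by gene symbol from the platform annotation of the array, where a probe set had to name that gene alone. Each of the 9 had 1 such probe set, a row of the deposited table that averages probes along the gene, and they stood among 20242 genes measured in this way. Liver RNA from 6 male C57BL/6 mice, 1 array per mouse, was compared after a fast of 24 hours. The 3 knockout mice carried floxed Cpt2 alleles and Albumin-Cre, a recombinase driven by the albumin promoter and so active in hepatocytes. The 3 control mice, titled WT in the labels, carried the same floxed alleles (Cpt2f/f) without Cre, so that an effect of Cre and an effect of the deletion cannot be told apart. The sample labels list ages of 9, 10 and 11 weeks for the controls and 12, 13 and 14 weeks for the knockouts, while the growth protocol gives 9 weeks for all. Listed age and genotype therefore do not overlap, and since the listed ages rise by 1 week from each sample to the next, a fit on them is equally a fit on sample order. Whether they are the true ages is not settled by the labels. The comparison addresses how loss of Cpt2 in hepatocytes alters liver gene expression during a fast.

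Growth hormone from the pituitary reaches hepatocytes through its receptor, encoded by Ghr. The receptor activates the kinase JAK2, which phosphorylates STAT5A and STAT5B, and these transcription factors enter the nucleus and switch on Igf1, Igfals, Socs2 and Cish. IGF1 leaves the liver and circulates in a complex with an IGF-binding protein and the acid-labile subunit encoded by Igfals. SOCS2 and CISH damp signalling from the receptor, and BCL6 is a repressor that competes for STAT5 sites and is itself held down by STAT5. Fasting is known to make the rodent liver less sensitive to growth hormone, with lower Igf1 and higher Igfbp1.

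The sequence read by STAT5 is the palindrome TTCNNNGAA, and the promoters of the genes that changed or that report STAT5 activity are shown here with any copy in capitals. Sequences came from RefSeq on build GRCm38.p6, in windows from 250 bases before an annotated start to 50 after it, and 8 of the 9 members matched an entry, all except Socs2. The motif is its own reverse complement, so 1 reading covers both strands, and no other motif was searched. It occurred in 2726 of 32851 windows (8.3%) and, by gene, in 2582 of 27025 (9.55%). Among the members it was found for 3 of 8 genes, Cish, Igfals and Bcl6, in 5 of their 15 windows. The 250 bases before the start listed for Igf1 and before the most upstream start listed for Ghr hold no copy, and those before the most upstream start of Igfals hold 1. A match is a match of letters, not a bound site, and the absence of a match refers to this window alone.
Igf1, chr10:87860861-87861110, plus strand: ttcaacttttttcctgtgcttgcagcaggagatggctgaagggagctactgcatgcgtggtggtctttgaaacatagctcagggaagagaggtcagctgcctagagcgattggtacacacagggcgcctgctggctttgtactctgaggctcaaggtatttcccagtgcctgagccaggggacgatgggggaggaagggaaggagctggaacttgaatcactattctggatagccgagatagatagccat
Ghr, chr15:3583353-3583602, minus strand: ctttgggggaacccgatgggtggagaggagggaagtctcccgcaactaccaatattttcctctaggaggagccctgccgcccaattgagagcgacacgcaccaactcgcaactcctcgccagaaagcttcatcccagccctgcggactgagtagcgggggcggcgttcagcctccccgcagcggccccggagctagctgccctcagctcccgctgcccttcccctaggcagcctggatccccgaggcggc
Igfals, chr17:24877594-24877843, plus strand: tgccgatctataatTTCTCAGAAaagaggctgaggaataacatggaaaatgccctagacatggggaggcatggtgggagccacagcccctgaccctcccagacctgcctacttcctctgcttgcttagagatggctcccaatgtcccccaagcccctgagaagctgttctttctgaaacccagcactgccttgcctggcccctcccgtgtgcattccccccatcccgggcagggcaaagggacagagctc

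Shorter stretches show the remaining copies. In Cish a tandem pair of copies begins at the annotated start, and Bcl6 holds 1 copy near its upstream start and 3 near a second listed start. Another listed start of Igfals has a copy 58 bases before it.
Cish, chr9:107296654-107296683, plus strand: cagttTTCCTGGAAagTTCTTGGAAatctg
Bcl6, chr16:23988952-23988980, minus strand: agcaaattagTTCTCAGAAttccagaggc
Bcl6, chr16:23981433-23981461, minus strand: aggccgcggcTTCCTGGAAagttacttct
Bcl6, chr16:23981387-23981415, minus strand: ggcaggagtgTTCTGTGAAatccttagag
Bcl6, chr16:23981353-23981381, minus strand: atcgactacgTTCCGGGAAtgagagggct
Igfals, chr17:24878163-24878191, plus strand: ctgccaggtgTTCCTAGAAgaggccctgg

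In the knockout livers the growth hormone receptor, Igf1 and the acid-labile subunit fell together, to between 51.6% and 56.8% of the control signal. The remaining 6 genes of the axis did not pass the test. All values below are log2 expression values as deposited, and differences are knockout minus control on that scale. A gene is called changed at an adjusted p under 0.05 by limma, a linear model with moderated variances, adjusted over all 20242 genes by the Benjamini-Hochberg method. Under this rule 3 of the 9 genes fell and 0 rose (by unadjusted p under 0.05, 3 and 1), where 3.49% of all genes fell and 4.74% rose. By unadjusted p under 0.05 these shares were 8.87% lower and 11.3% higher, and both pairs of shares are the background for the counts of every list below. The members were chosen with earlier results of these data known, so their count is no independent check. The median difference of the 9 genes was -0.10, against -0.01 over all genes. Markers of hepatocytes were lower as well, with a median difference of -0.42 over 12 measured, as described below. Of the 9 axis genes 6 were lower and 3 higher by value. The groups did not overlap in 4 of them, where that holds for 25.1% of all genes.

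**Figure D1:**
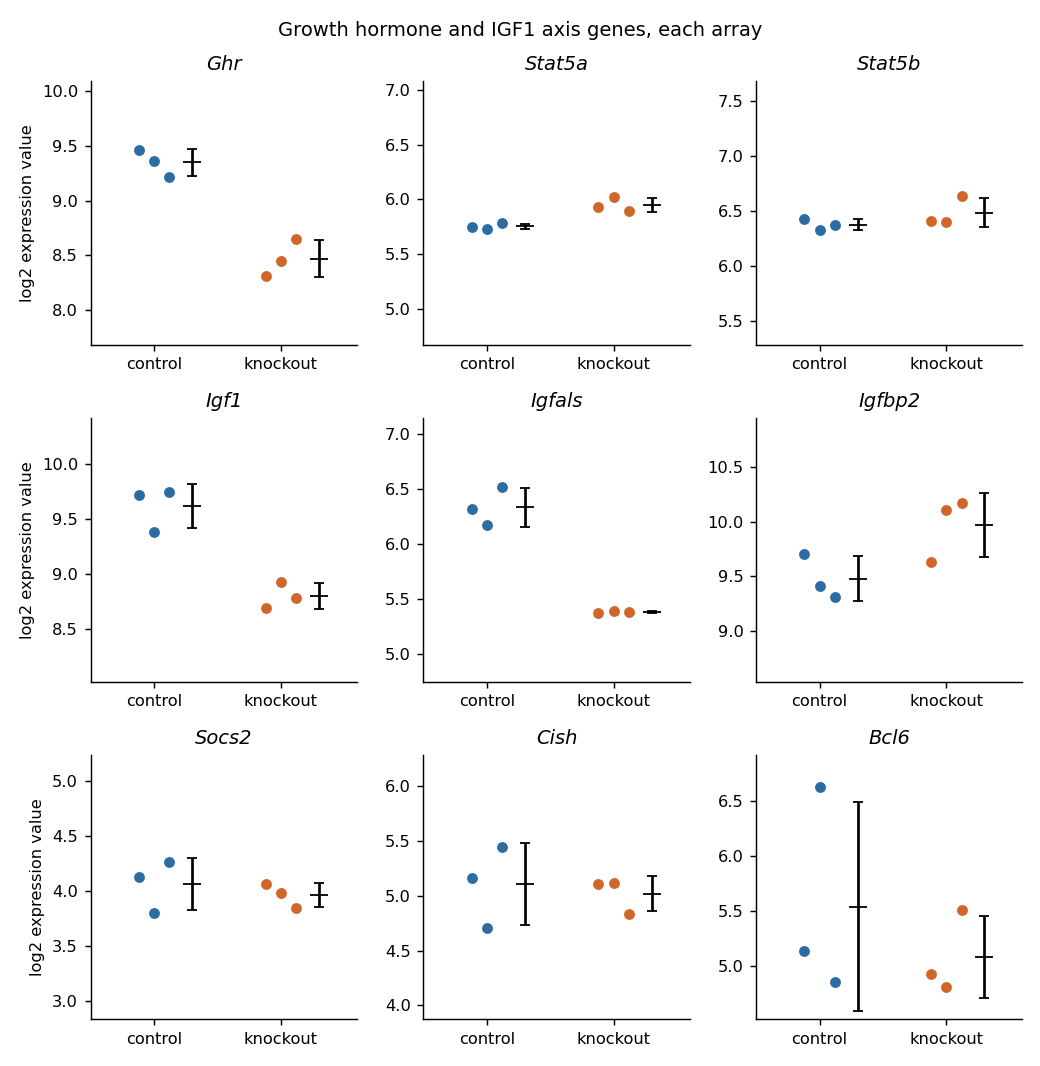
Log2 expression value (vertical axis, the same span in each panel) of the 9 axis genes in 3 control arrays (blue) and 3 knockout arrays (orange), with points in order of replicate number and the mean and SD of each group in black. Ghr, Igf1 and Igfals separate the groups with room between them, and Bcl6 spreads over 1.77 log2 units among the controls.

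Ghr encodes the receptor through which the liver senses growth hormone. Its values were 9.46, 9.36 and 9.21 in control livers and 8.31, 8.45 and 8.65 in knockout livers. Every knockout lay below every control, with a gap of 0.56 between the nearest arrays. The difference was -0.87 (SE 0.12, adjusted p = 0.00332 by limma), which leaves 54.5% of the control signal. The probe set averages over the gene and does not separate the full-length receptor from the short transcript of the secreted binding protein.

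Neither signal transducer gene passed the test. Stat5a had values of 5.75, 5.73 and 5.78 in control livers and 5.94, 6.02 and 5.90 in knockout livers. The knockouts were all higher, but by little, and the difference of 0.20 did not pass (95% interval -0.01 to 0.40, adjusted p = 0.278 by limma). Stat5b, which encodes the STAT5 form that predominates in liver, had 6.43, 6.33 and 6.37 in control livers and 6.41, 6.40 and 6.64 in knockout livers. Its groups overlapped, and the difference of 0.11 did not pass (95% interval -0.13 to 0.34, adjusted p = 0.673 by limma). These are transcript levels, and phosphorylated STAT5 protein was not measured here.

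Igf1 encodes the main circulating growth factor that the liver makes under growth hormone. It was read at 9.72, 9.38 and 9.74 in the controls and at 8.69, 8.93 and 8.77 in the knockouts. No knockout array reached the lowest control, and the nearest pair was 0.46 apart. The difference was -0.82 (SE 0.13, adjusted p = 0.0058 by limma), and 56.8% of the control signal was left.

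Igfals encodes the acid-labile subunit, which is made by hepatocytes and keeps IGF1 in the circulation. The controls read 6.31, 6.17 and 6.52 and the knockouts 5.37, 5.39 and 5.38. The knockouts sat within 0.02 of each other while the controls spread over 0.35, and the groups were 0.78 apart at their nearest. Igfals showed the largest fall of the 9 genes, with a difference of -0.96 (SE 0.11, adjusted p = 0.00168 by limma) and 51.6% of the control signal left.

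The 3 falls ran from -0.96 in Igfals to -0.82 in Igf1. Taken within each array, the change of Igfals differed from that of Ghr by -0.08 (SD of the within-array difference 0.28 in controls and 0.16 in knockouts) and from that of Igf1 by -0.14 (SD 0.11 in each group). The changes of Ghr and Igf1 differed by -0.06 (SD 0.25 and 0.18). These differences are given without a test, since with 3 arrays a group an exact permutation test cannot give a p below 0.1.

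Igfbp2 encodes a binding protein of IGFs that is known to rise in serum when growth hormone is low. Its values were 9.71, 9.41 and 9.31 in control livers and 9.63, 10.10 and 10.17 in knockout livers. Knockout replicates 2 and 3 lay above all controls, while knockout replicate 1 lay below the highest control. The difference of 0.49 did not pass (95% interval 0.10 to 0.87, adjusted p = 0.137 by limma). Without knockout replicate 1 it was 0.66 and passed (adjusted p = 0.0394), and over 17 alternative settings the adjusted p ran from 0.0394 to 0.902, passing in this 1. Within each array, the log2 value of Igfbp2 less that of Igf1 was higher in every knockout than in every control, by 1.30 on average, most of which is the fall of Igf1.

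**Figure D2:**
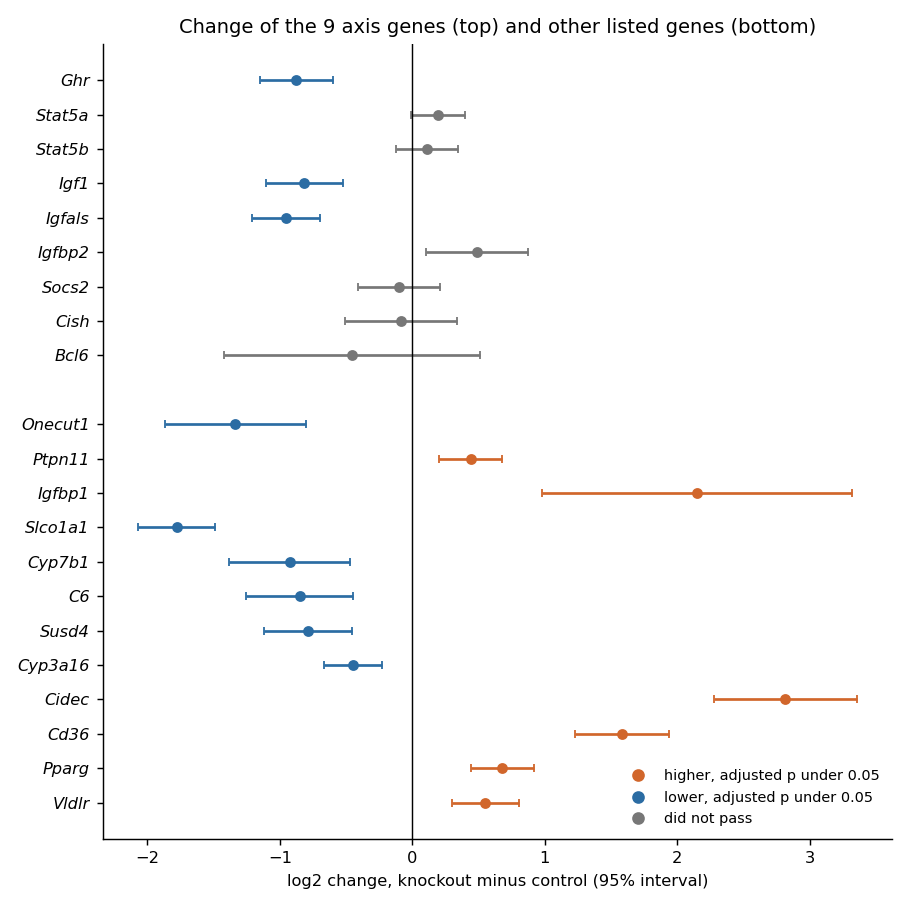
Log2 difference between knockout and control (horizontal axis) with its 95% interval for the 9 axis genes (upper block) and the genes named from the other lists (lower block), coloured by whether adjusted p was under 0.05. Ghr, Igf1 and Igfals lie together between -0.96 and -0.82, while the interval of Bcl6 runs from -1.42 to 0.51.

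The feedback genes Socs2 and Cish, which STAT5 induces, did not separate the genotypes. Socs2 had 4.12, 3.80 and 4.27 in control livers and 4.06, 3.98 and 3.85 in knockout livers, and all knockouts fell inside the control range. The difference was -0.10 (95% interval -0.41 to 0.21, adjusted p = 0.803 by limma). Cish read 5.16, 4.71 and 5.45 in control livers and 5.11, 5.12 and 4.83 in knockout livers, again inside the control range, with a difference of -0.09 (95% interval -0.51 to 0.34, adjusted p = 0.889 by limma). For Socs2 a fall as large as that of Ghr lies outside this interval, and for Cish as well. RMA understates changes of dim probe sets, and Socs2 stood at the 47.6th percentile of level among all genes.

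Bcl6, the repressor, had 5.13, 6.62 and 4.85 in control livers and 4.92, 4.81 and 5.51 in knockout livers. Control replicate 2 stood above every other array. The difference of -0.46 (95% interval -1.42 to 0.51, adjusted p = 0.663 by limma) became 0.09 without that array (adjusted p = 0.944), so no direction is given.

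Among the 3 arrays of each genotype, Socs2 tended to follow Cish, and Bcl6 tended to run against both. Control replicate 2 had the lowest Cish and Socs2 and the highest Bcl6 of the controls, and knockout replicate 3 had the lowest Cish and Socs2 and the highest Bcl6 of the knockouts. Over the 6 arrays, Cish and Socs2 correlated at Pearson's r = 0.98 (exact permutation p = 0.00556) and Spearman's rho = 0.94 (exact permutation p = 0.0167). Cish and Bcl6 ran against each other at r = -0.83 (exact permutation p = 0.0306) and rho = -0.71 (exact permutation p = 0.136), and Socs2 and Bcl6 at r = -0.74 (exact permutation p = 0.0472) and rho = -0.60 (exact permutation p = 0.242). Adjusted over the 3 pairs, p was 0.0167, 0.0458 and 0.0472 for r and 0.05, 0.204 and 0.242 for rho by the exact permutation test. Without the 2 arrays farthest from the median of the first gene of a pair, which were control replicates 2 and 3 each time, r was 0.92, -0.83 and -0.59 over 4 arrays. The 3 genes were picked for this after their values were seen, and the adjustment covers only their 3 pairs. The p-values therefore leave out that choice, and the correlations are a description of these arrays only. Within a genotype 3 arrays are too few for a test.

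**Figure D3:**
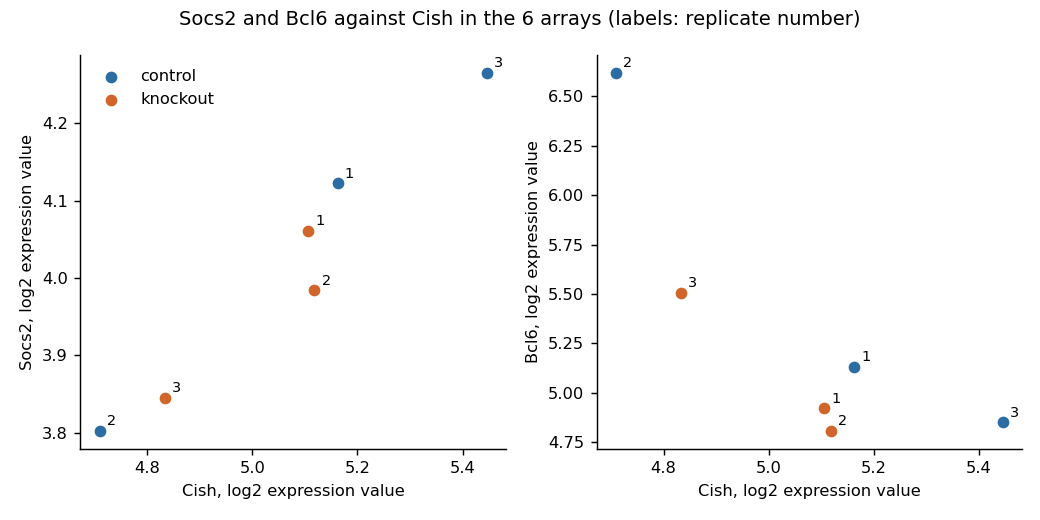
Socs2 (left) and Bcl6 (right) against Cish, each axis a log2 expression value and each point 1 array labelled by replicate number, controls blue and knockouts orange. Control replicate 2 and knockout replicate 3 lie at the low end of Cish, with low Socs2 and high Bcl6, and the genotypes intermingle.

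By a fixed measure, Pearson's r over the 6 arrays, the genes most like Igfals were Dpys (r = 0.999), an enzyme of pyrimidine breakdown, Hectd2os (0.998) and Galm (0.998), the mutarotase of galactose. Dpys was at 9.07 on average in the controls and 8.22 in the knockouts. Igfbp2, which had the largest rise by value, was most like Olfr736 (r = 0.995), Fbxw4 (0.990) and Coq3 (0.990), an enzyme of coenzyme Q synthesis. Olfr736 was very dim, at 1.98 in the controls and 2.26 in the knockouts on average, below the median of 2.88 over all deposited values. With 6 arrays and 20242 genes, values of r this high are a description of these arrays only.

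Beyond the 9 genes, a list of 24 partners of growth hormone signalling had 22 measured members, with a median difference of 0.04. By adjusted p 1 fell and 1 rose, near the background shares of 3.49% and 4.74%. By unadjusted p under 0.05, 4 were lower and 2 higher, where 8.87% and 11.3% of all genes were. The one that fell by adjusted p was Onecut1, which encodes HNF6, a liver transcription factor that growth hormone is known to induce. It read 7.25, 6.75 and 7.66 in control livers and 5.68, 6.21 and 5.76 in knockout livers, without overlap. The difference was -1.34 (SE 0.23, adjusted p = 0.00975 by limma), and -0.87 where all probe sets of the gene were averaged. Ptpn11, which encodes the phosphatase SHP2, rose from 6.21 ± 0.07 to 6.65 ± 0.13 (SD, n = 3 each; limma adjusted p = 0.0379). That call was lost whichever array was left out (adjusted p = 0.0612 to 0.136), and the difference of 0.44 was 0.22 with listed age in the fit. Jak2, added after its values were seen, stood at 4.67 in the controls and 4.75 in the knockouts on average and did not pass (adjusted p = 0.816 by limma).

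Of 17 other genes of the IGF system, ligands, receptors, binding proteins and proteases, 1 rose and 0 fell (by limma; 1 and 3 by unadjusted p under 0.05), with a median difference of -0.01, and the 1 that rose is near the background share of 4.74%. The gene that rose was Igfbp1, a binding protein that insulin represses and fasting induces. Its values were 9.67, 8.95 and 7.43 in control livers and 10.25, 11.17 and 11.07 in knockout livers. All knockouts exceeded all controls, and the controls spread far more than the knockouts. The difference was 2.15 (SE 0.51, adjusted p = 0.0384 by limma), a 4.43-fold rise. The call was lost when control replicate 2 (adjusted p = 0.0835) or 1 of knockout replicates 2 and 3 (0.119 and 0.128) was left out, and without control replicate 3 the difference was 1.52 (adjusted p = 0.0346). With listed age in the fit it was 3.21 and did not pass (adjusted p = 0.319). Igfbp3, the usual partner of the acid-labile subunit, was added after its values were seen. It stood at 5.31 in the controls and 5.37 in the knockouts on average (adjusted p = 0.908 by limma).

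**Figure D4:**
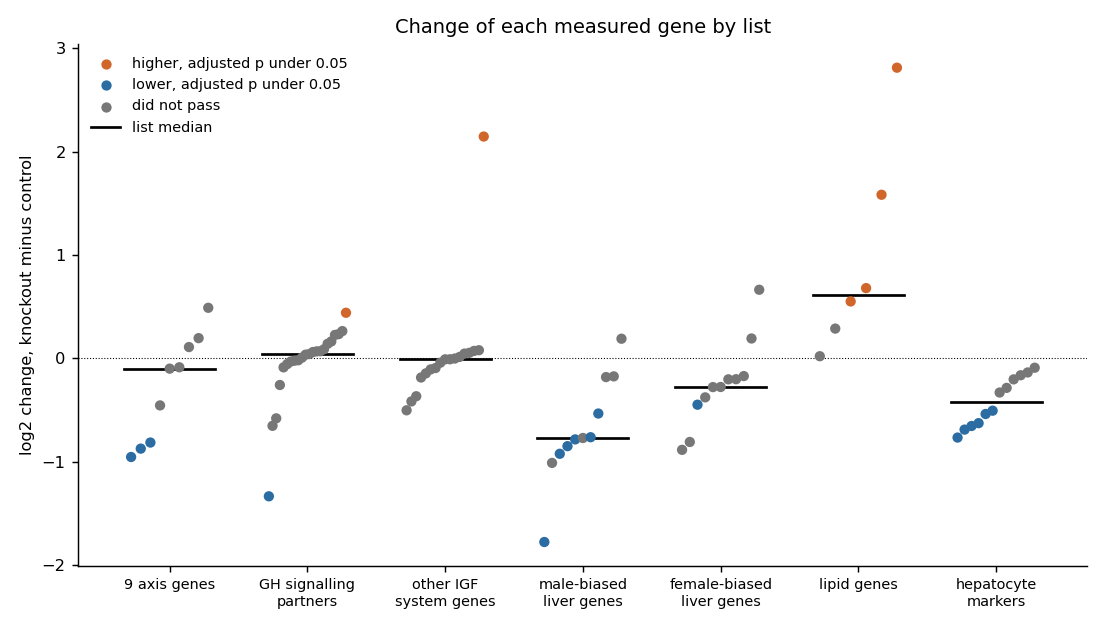
Log2 difference between knockout and control (vertical axis) of each measured gene, by list (horizontal axis), coloured by whether adjusted p was under 0.05, with a black bar at the list median. The medians were -0.10 for the 9 axis genes, -0.77 for male-biased liver genes, 0.62 for lipid genes and -0.42 for hepatocyte markers.

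The pulsed release of growth hormone in male mice is known to keep up a set of male-biased liver genes through STAT5B. Of 22 listed, 11 had a probe set of their own and 11 did not. In the measured ones 6 fell and 0 rose (by unadjusted p under 0.05, 8 and 0), with a median difference of -0.77. The organic anion transporter Slco1a1 fell most, from 7.40 ± 0.21 to 5.62 ± 0.10 (SD, n = 3 each; limma adjusted p = 0.000181). Cyp7b1, an oxysterol hydroxylase, changed by -0.92, the complement gene C6 by -0.85 and Susd4 by -0.79 (adjusted p = 0.0255, 0.021 and 0.0129 by limma). The remaining calls were Mup3 (-0.76) and Cyp2d9 (-0.53), with adjusted p = 0.00919 and 0.00789 by limma. Both belong to gene families, and RNA of close relatives can bind the same probes. Cyp7b1 lost the call without control replicate 1 or 2 (adjusted p = 0.0839 and 0.0892) or knockout replicate 1 or 3 (0.063 and 0.0877). C6 lost it when control replicate 2 (0.0662) or 1 of knockout replicates 2 and 3 (0.0679 and 0.078) was left out, and Susd4 without knockout replicate 3 (0.0507), so that 3 of the 6 calls were left without that array. With listed age in the fit the difference of C6 was -0.09 and that of Susd4 -0.38. Female-biased liver genes are known to be favoured by the steadier growth hormone level of females. Of 11 measured 0 rose and 1 fell by limma (by unadjusted p under 0.05, 0 and 3), with a median of -0.28. Among them Sult3a1, Hao2 and Sult1e1 were very dim, at percentiles 1.3, 5.8 and 8.5 of level among all genes. The gene that fell was Cyp3a16, which has close relatives whose RNA can bind the same probes, at -0.45 (adjusted p = 0.0243 by limma), and leaving out 1 array at a time kept the call in 1 of 6 cases (0.0339 to 0.0965).

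Mouse livers without growth hormone signalling are known to store fat, and a list of lipid genes was drawn up on that basis. Like every list here, it was chosen with earlier results of these data known, so its counts are no independent check. It held 6 genes. Of these, 4 rose and 0 fell (by unadjusted p under 0.05, 5 and 0), with a median difference of 0.62. They were the lipid droplet gene Cidec (2.81), the fatty acid transporter Cd36 (1.58), the nuclear receptor gene Pparg (0.68) and the lipoprotein receptor Vldlr (0.55), with adjusted p = 0.00036, 0.000692, 0.00525 and 0.0191 by limma. Vldlr lost the call without control replicate 1 or 2 (adjusted p = 0.0709 and 0.0684) or knockout replicate 1 or 3 (0.0521 and 0.0597), and its difference was 0.22 with listed age in the fit. Cidec and Cd36 are also known as targets of the PPAR family of fatty acid receptors.

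In liver pieces, fewer hepatocytes and less RNA per hepatocyte cannot be told apart, and hepatocyte markers were lower as well. Of 12 measured, 6 fell and 0 rose (by unadjusted p under 0.05, 8 and 0), all 12 were lower by value, and the median difference was -0.42. The differences ran from -0.77 in Vtn, where 58.7% of the control signal was left, to -0.09 in Tat. Their summed level, as log2 of the sum of linear values, was 14.57 to 14.74 in the controls and 14.18 to 14.49 in the knockouts, and 0 markers were at 0. The count of 6 was 3 after quantile normalization, without control replicate 1 or without control replicate 3. Where each array was centred on the mean of these markers, the median of all genes moved to 0.41 and 11276 genes were higher and 309 lower, in place of 960 and 707. On that scale Ghr (-0.46), Igf1 (-0.40) and Igfals (-0.54) were lower (adjusted p = 0.0121, 0.0351 and 0.0118 by limma). Stat5a (0.61), Stat5b (0.53) and Igfbp2 (0.91) passed upward. The scale was chosen after the data were seen. With this many genes called the adjustment is looser, so these passes are not equal to a pass without centring. Cyp7b1 (adjusted p = 0.0502), C6 (0.0676), Susd4 (0.0663) and Cyp3a16 (0.802) did not pass on the centred scale. Of the male-biased genes, 2 were called lower and 1 higher on that scale. Among 10 markers of Kupffer cells and macrophages, which can make IGF1, Gpnmb and Cd68 rose (3.35 and 2.32) and Marco fell (-0.52), while 8 of the 10 were lower by value (by unadjusted p under 0.05, 2 higher and 5 lower) and the median was -0.31. Gpnmb and Cd68 were the only 2 higher by value, and the summed level of the list was 9.50 to 9.99 in the controls and 10.03 to 10.48 in the knockouts. Of 8 endothelial markers Lyve1 rose (0.92), and these 4 markers were named after their values were seen. Among 9 stellate cell, 4 cholangiocyte and 7 lymphocyte and neutrophil markers 0 passed by limma (0, 1 and 0 by unadjusted p under 0.05). The part of hepatocyte content in the results above was not tested, and the centred scale does not decide it.

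The deleted gene checked the labels, with Cpt2 at 7.56, 7.72 and 7.63 in control livers and 6.48, 6.73 and 6.75 in knockout livers. Its signal in the knockouts was still 50.5% of that in the controls, a difference of -0.99 (adjusted p = 0.0013 by limma). Over all genes 1667 of 20242 changed (8.24%), 960 upward and 707 downward. Pairs of arrays of the same genotype correlated at r = 0.985 or more and pairs of different genotype at 0.977 or less, so no array stood apart from its group, and the number of arrays limits the precision.

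The calls of Ghr, Igf1 and Igfals held whichever array was left out, with adjusted p from 0.00342 to 0.0272 and differences from -1.04 to -0.75. They did not hold in 2 alternative settings for any of the 3 genes. Tested among all 115050 probe sets the adjusted p-values were 0.112, 0.149 and 0.0772, and in a fit that adds listed age 0.26, 0.308 and 0.127, with differences of -0.94, -0.90 and -1.12. The deleted gene Cpt2 also lost its call in these 2 settings (adjusted p = 0.0692 and 0.0753 by limma). With unmoderated statistics Ghr (0.0535) and Igf1 (0.0701) lost the call and Igfals kept it. Of the 12 genes named from the other lists, Cidec, Cd36 and Slco1a1 kept their calls among all probe sets, these and Pparg with unmoderated statistics, and Cidec alone with listed age in the fit.

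**Figure D5:**
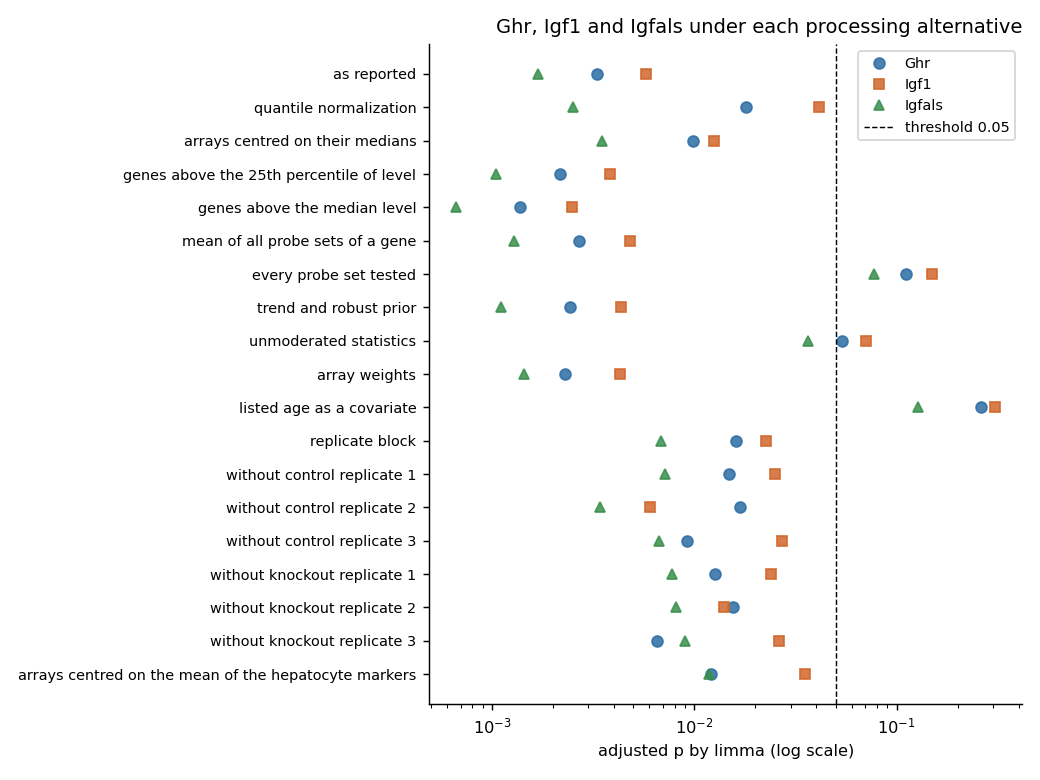
Adjusted p by limma (horizontal axis, log scale) of Ghr, Igf1 and Igfals as reported and under each processing alternative (vertical axis), with the threshold of 0.05 as a dashed line. Points of all 3 genes lie right of the line where every probe set was tested and where listed age was a covariate, and those of Ghr and Igf1 also with unmoderated statistics.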

How the data were processed

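Liver RNA of 6 mice was hybridised to Affymetrix exon arrays, 1 per mouse. The authors deposited log2 expression values, 1 per probe set and array, for 115050 probe sets, running from 0.668 to 13.6. The submitters' processing notes give Partek, RMA and build mm9, with no version or option. RMA compresses changes of dim probe sets. Genes were named from the platform annotation, in which 25469 probe sets name 1 gene, 2286 several and 87295 none. Where a gene had several, that of highest mean level was used. Groups came from the sample titles.

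Knockout and control were compared by limma 3.58.1 under R 4.3.3, using lmFit and eBayes in a two-sided test without covariates or filters, with Benjamini-Hochberg adjustment over 20242 genes and a threshold of 0.05. The fit had 4 residual and 4.23 prior degrees of freedom, and was tested on simulated data. SE is that of the moderated test and SD is between arrays of a group. Exact permutation tests used scipy 1.17.1. The members, gene lists and named genes were chosen with earlier results of these data known. From each list up to 4 passing genes of largest change were named, Jak2 and Igfbp3 being added after their values were seen. Alternatives covered normalization, dim genes, probe set choice, moderation, array weights, listed age, a replicate block and leaving out each array. Centring on hepatocyte markers was added after the data were seen. Same-numbered arrays of the groups had deviations correlated at 0.07, 0.18 and -0.08, so the numbers were not taken as pairs. The labels call the samples biological replicates. Detection calls were not used here.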

Additional observations from a re-analysis of the deposited data

How the results depend on the processing

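The count of 3 changed members held under 13 of 17 alternative settings and was 0 when all probe sets were tested, 1 without moderation of the variances and 0 with listed age in the fit, where genotype and age compete for the same arrays and the ages themselves are in doubt, since the growth protocol gives 1 age for all mice. Leaving out each array gave 3 to 4. The count over all genes was 367, 652 and 83 under the same alternatives and 1036 to 1305 with an array left out. Centring on hepatocyte markers, chosen after seeing the data, gave 6 members and 11585 genes. Replicate number as a block gave 3 members and 1384 genes, 3 of the 6 arrays correlating best with their own number, and the calls of Igfbp1, Ptpn11 and Cyp3a16 were lost (adjusted p = 0.0647, 0.0528 and 0.0637) among the 12 genes named from the other lists. Stat5b, which did not pass, turned to -0.017 with listed age. Hepatocyte centring shifts all genes upward alike, so Socs2 (0.32) and Cish (0.33) change sign by construction. With an array left out, Socs2 ran from -0.23 to 0.00082, Cish from -0.29 to 0.083 and Bcl6 from -0.80 to 0.087. The cause was not tested. Without detection calls no level is called above background, which limits dim genes such as Socs2 most.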
